A study of Mus musculus with 6 samples.

Results

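The genes described here are 9 claudins, Cldn1, Cldn2, Cldn3, Cldn4, Cldn7, Cldn8, Cldn12, Cldn15 and Cldn23, together with the occludin gene Ocln, 10 of the 18193 genes measured. They were taken by gene symbol and each is represented by its brightest probe set. RNA of the distal jejunum was hybridised to Affymetrix arrays, 1 array per mouse, from 3 mutant mice with a conditional deletion of Hnf4a driven by a Villin-Cre transgene, which is active in the intestinal epithelium, and from 3 control littermates. All 6 mice carried the strain label B6.129X1(FVB)-Hnf4atm1.1Gonz/J, were 7 months old and received ketamine and xylazine before death, and the labels do not say whether controls carried the transgene or the floxed allele. The values are the authors' deposited log2 signals, and a change is the mean log2 signal of mutants minus that of controls.

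Tight junctions close the space between neighbouring epithelial cells near their apical side. Claudins are the membrane-spanning proteins that form their strands, and they differ in what they let through: channel-forming claudins pass small ions or water between cells, and sealing claudins hold them back. Occludin lies in the same strands, and scaffold proteins of the ZO family tie the strands to actin. HNF4A is a nuclear receptor, and in mouse embryonal carcinoma cells its expression has been reported to switch on tight junction genes. Small intestine is a leaky epithelium in which claudin-2 and claudin-15 carry paracellular sodium.

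Promoter sequence, credited to RefSeq with build GRCm38.p6, was given for 8 of the 10 genes in 12 windows, each reaching from 250 bases before a start site to 50 bases after it. The 3 sequences below are the 250 bases before the start site of Cldn15, which lay lower in the mutants, and of Cldn4 and Cldn2, which lay higher. Each is written from upstream to the start site on the strand of the gene, and capitals mark a motif found by search on both strands. In Cldn15 (chr5:136967619-136967868, plus strand) the capitals are TGGACTTT, the reverse complement of AAAGTCCA. In Cldn4 (chr5:134946935-134947184, minus strand) they are the reverse complement of AGGTCA, and in Cldn2 (chrX:139800558-139800807, plus strand) the TATA box TATAAA.
Cldn15: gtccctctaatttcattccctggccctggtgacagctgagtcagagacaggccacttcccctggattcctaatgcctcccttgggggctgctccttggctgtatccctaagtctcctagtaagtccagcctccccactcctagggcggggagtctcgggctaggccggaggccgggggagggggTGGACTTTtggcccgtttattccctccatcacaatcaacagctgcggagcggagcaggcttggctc
Cldn4: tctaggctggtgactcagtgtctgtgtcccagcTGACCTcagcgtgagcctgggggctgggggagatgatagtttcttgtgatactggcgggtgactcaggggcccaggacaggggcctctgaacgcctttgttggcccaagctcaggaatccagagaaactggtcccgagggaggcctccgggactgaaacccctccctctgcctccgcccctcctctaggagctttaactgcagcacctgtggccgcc
Cldn2: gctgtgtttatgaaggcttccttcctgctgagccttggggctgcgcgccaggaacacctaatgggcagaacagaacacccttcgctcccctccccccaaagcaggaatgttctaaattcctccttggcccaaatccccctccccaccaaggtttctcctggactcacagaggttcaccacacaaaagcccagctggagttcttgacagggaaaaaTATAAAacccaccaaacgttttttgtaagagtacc
The letters AAAGTCCA are the HNF4 recognition sequence CAAAGTCCA without its first base, and this shortened form was searched after the Cldn15 sequence had been read. Cldn15 was the only member with it, at bases -66 to -59, and 1.25% of all 32851 promoter windows hold it. The full CAAAGTCCA was in none of the member windows and in 0.475% of all windows. AGGTCA, a hexamer bound by many nuclear receptors, was in Cldn4, Cldn7, Cldn15 and Ocln and in 16.3% of all windows, and overlaps neither longer motif in these genes. TATAAA was in Cldn2 alone among the members, at bases -35 to -30, and in 13.6% of all windows. A match of letters is a description of the sequence and does not show binding.

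The targeted gene, Hnf4a, read 8.83, 8.83 and 9.82 in mutants 1, 2 and 3, against 11.8, 11.8 and 11.6 in controls 1, 2 and 3, and fell 5.88-fold (limma, adjusted p = 0.00756). The adjusted p was 0.0506 without control 2, and 0.205 without control 3 and mutant 2 together, where the change was -2.47. The place of this probe set relative to the deleted exons is not stated, so the signal left in mutants gives no estimate of the extent of deletion. The labelled tissue was checked against marker genes. The 6 measured enterocyte markers, among them Vil1, Fabp2 and Lct, averaged 12.77 to 12.95 in mutants and 13.02 to 13.08 in controls, all far above the median probe set at 3.96. Control 3 carried pancreatic acinar transcripts, with a marker mean of 8.02 against 3.53 to 3.75 on the other arrays, and mutant 2 carried fat transcripts, with a marker mean of 8.31 against 6.68 to 6.97 elsewhere.

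In the mutants, Cldn15 lay lower and Cldn4, Cldn23 and Cldn2 lay higher, whereas Cldn3, Cldn7, Cldn12 and Ocln had groups that overlapped. None of the 10 genes passed limma's test at an adjusted p under 0.05, a threshold that 0.528% of all genes passed, 0.198% higher and 0.33% lower. At an unadjusted p under 0.05 there were 5 members, 4 higher and 1 lower. Over all genes 12.1% met that level, 5.24% higher and 6.85% lower. Mutant values lay wholly beyond control values in 6 of the 10, namely Cldn2, Cldn4, Cldn8 and Cldn23 above and Cldn1 and Cldn15 below. Cldn1 and Cldn8 read under the median probe set, and among the 8 brighter members 3 lay wholly above and 1 wholly below. The groups were apart in this way in 17.1% of all genes, 6.93% above and 10.2% below. The members were chosen with earlier results of these data known, so their counts beside these shares are a description and no test. The median change of the members was 0.10 and that of all genes -0.01.

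**Figure D1:**
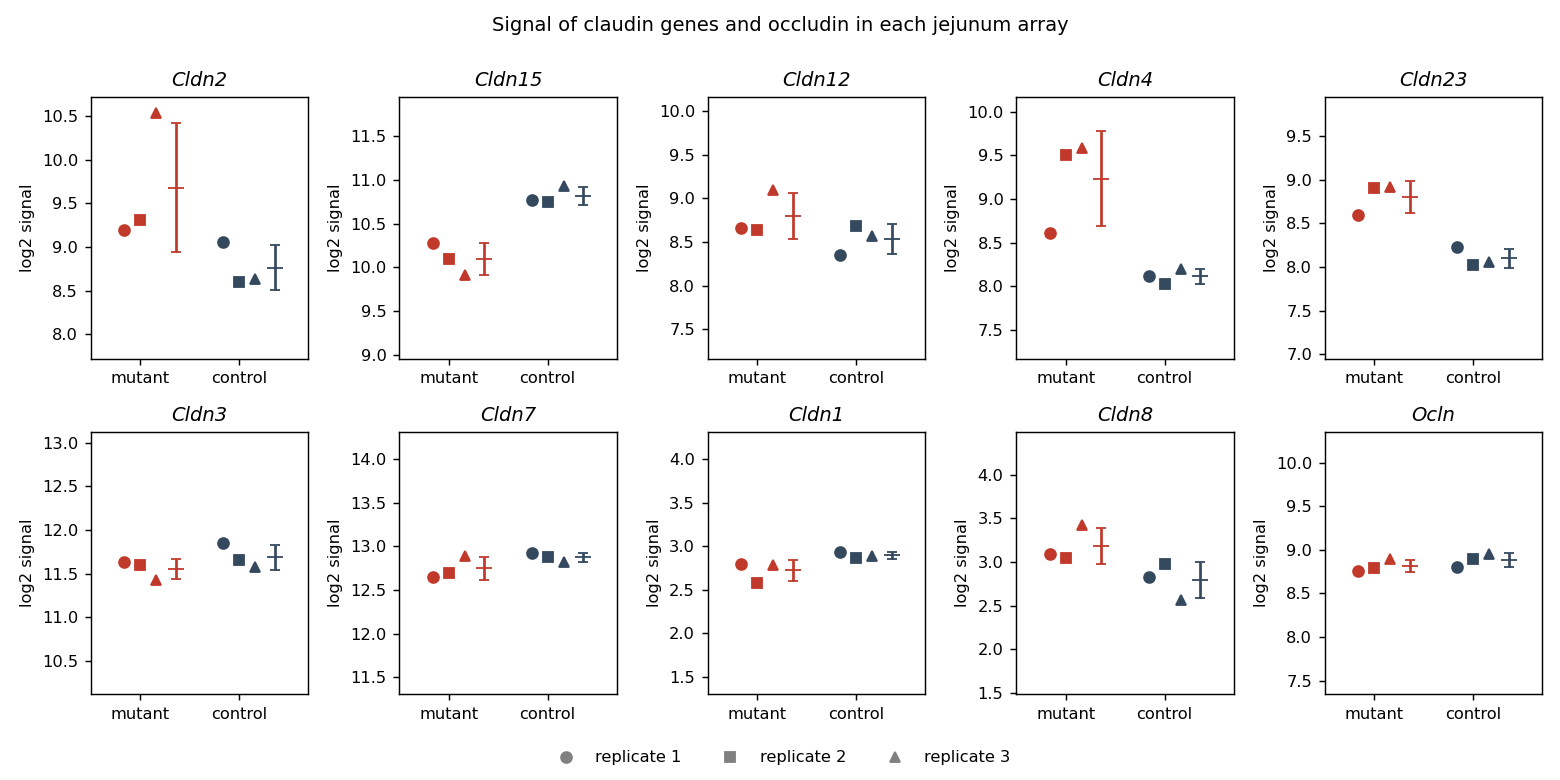
Log2 signal of each of the 10 genes on each array, mutants in red at the left and controls in dark blue at the right of each panel, with the mean and SD (n = 3 each) beside the points. Every vertical axis spans the same log2 range around its own gene. Cldn15 separates downward, Cldn4, Cldn23 and Cldn2 separate upward, and mutant 3 stands above the others for Cldn2.

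The channel-forming claudins Cldn15 and Cldn2 differed in opposite directions. Cldn15 encodes a sodium-permeable channel claudin whose loss in mice impairs paracellular sodium supply and glucose absorption. It read 10.3, 10.1 and 9.91 in mutants 1, 2 and 3, against 10.8, 10.7 and 10.9 in controls 1, 2 and 3. All mutant values lay below all control values, and the gap between the groups was wider than the range within either. The change was -0.72 ± 0.12 SE, a 1.65-fold lower signal with a 95% interval of the mutant to control ratio from 0.499 to 0.739 (limma, adjusted p = 0.0607). Cldn15 had 1 probe set, so no other probe set could check it.

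Cldn2 encodes a claudin that forms cation and water channels and is known from crypts of the small intestine. It read 9.20, 9.31 and 10.5 in mutants 1, 2 and 3, against 9.06, 8.60 and 8.63 in controls 1, 2 and 3. Mutant 3 lay more than 1 log2 unit above the other mutants, while mutant 1 lay close to control 1. The change was 0.91 ± 0.33 SE, a 1.89-fold higher signal with a ratio interval from 1.11 to 3.19 (adjusted p = 0.314), and without mutant 3 it was 0.49. The dimmer Cldn2 probe set read 5.50, 6.32 and 7.30 in mutants 1, 2 and 3, against 6.15, 5.32 and 5.67 in controls 1, 2 and 3. On it the groups overlapped, with a change of 0.66 ± 0.42 SE.

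Cldn2 is X-linked, and its highest value within each group came from the array that carried Y-linked transcripts. Cldn7 on chromosome 11 and Cldn23 on chromosome 8 were also highest in that array of each group, by smaller margins. For Cldn23, mutant 3 read 8.911 and mutant 2 read 8.902. The mean of 3 Y-linked genes (Eif2s3y, Kdm5d and Uty, picked after the data were seen) was 5.62 in mutant 3 and 2.53 to 2.54 in the other mutants, and 5.54 in control 1 and 2.55 to 2.70 in the other controls. Between mutant 3 and control 1 Cldn2 differed by 1.47, and between the other mutants and the other controls by 0.64. With the Y-linked mean as a covariate the change of Cldn2 was 0.92 and its adjusted p 0.0609. A single animal of this kind stood in each group, so sex and other properties of these 2 animals cannot be told apart.

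The difference between both channel claudins can be read within each array, where a shift of the whole array cancels. Cldn2 minus Cldn15 was -1.08, -0.79 and 0.62 in mutants 1, 2 and 3, against -1.71, -2.14 and -2.30 in controls 1, 2 and 3. The groups could not overlap here, because each gene alone already separated them, in opposite directions. The change of Cldn2 exceeded that of Cldn15 by 1.63. This pair and the pair of Cldn4 and Cldn3 were chosen after their values were seen, so the differences are given with no test.

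Cldn12, a claudin tied to paracellular calcium passage, read 8.66, 8.63 and 9.10 in mutants 1, 2 and 3, against 8.35, 8.68 and 8.57 in controls 1, 2 and 3. Mutant 3 was above every control, and mutants 1 and 2 were below control 2. Its change was 0.27 ± 0.16 SE (adjusted p = 0.565), and 0.11 without mutant 3. The other Cldn12 probe set gave 0.17.

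Among the sealing claudins, Cldn4 and Cldn23 lay higher in the mutants. Cldn4 encodes a sealing claudin that also binds the Clostridium perfringens enterotoxin. It read 8.61, 9.51 and 9.58 in mutants 1, 2 and 3, against 8.12, 8.03 and 8.20 in controls 1, 2 and 3. The controls lay within 0.2 of each other, and mutant 1 lay between them and the other mutants. The change was 1.12 ± 0.24 SE, a 2.17-fold higher signal with a ratio interval from 1.48 to 3.19 (adjusted p = 0.108), the largest positive difference among the members. Without mutant 1, the mutant with the smallest difference, Cldn4 rose by 1.43 (adjusted p = 0.00976).

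Cldn23, a claudin of differentiated gut epithelium that has been reported to interact with claudin-3 and claudin-4, read 8.59, 8.90 and 8.91 in mutants 1, 2 and 3, against 8.22, 8.03 and 8.05 in controls 1, 2 and 3. The groups did not overlap, with mutant 1 again nearest to the controls. The change was 0.70 ± 0.12 SE, 1.62-fold with a ratio interval from 1.33 to 1.98 (adjusted p = 0.0667). Without mutant 1 the change was 0.80 and passed (adjusted p = 0.0446), as did the change of Cldn15 at -0.81 (adjusted p = 0.0497). Cldn4 and Cldn23 had 1 probe set each.

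Cldn3, Cldn7 and Ocln, all broadly present in gut epithelium, showed small differences with narrow intervals. Cldn3 encodes a sealing claudin and, with no gene between them in the RefSeq annotation, is the chromosomal neighbour of Cldn4. It read 11.6, 11.6 and 11.4 in mutants 1, 2 and 3, against 11.8, 11.7 and 11.6 in controls 1, 2 and 3, and the groups overlapped. Its change was -0.14 ± 0.12 SE, with a ratio interval from 0.756 to 1.10 (adjusted p = 0.722). The 3 other Cldn3 probe sets gave -0.22, -0.23 and -0.16. The suffix x in the name of the brightest Cldn3 probe set marks probes that can bind other transcripts too.

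Between these neighbours, the change of Cldn4 exceeded that of Cldn3 by 1.25. Cldn4 minus Cldn3 was -3.03, -2.10 and -1.84 in mutants 1, 2 and 3, against -3.73, -3.62 and -3.37 in controls 1, 2 and 3. The groups did not overlap, and Cldn4 alone already separated them.

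Cldn7 encodes a claudin found along the lateral membrane, where it binds EpCAM. It read 12.6, 12.7 and 12.9 in mutants 1, 2 and 3, against 12.9, 12.9 and 12.8 in controls 1, 2 and 3, so mutant 3 lay within the control range. The change was -0.13 ± 0.11 SE with a ratio interval from 0.774 to 1.08 (adjusted p = 0.715).

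Ocln read 8.76, 8.80 and 8.89 in mutants 1, 2 and 3, against 8.80, 8.90 and 8.96 in controls 1, 2 and 3. The groups overlapped on both of its probe sets. The change was -0.07 ± 0.10 SE on the brighter probe set, with a ratio interval from 0.815 to 1.12 (adjusted p = 0.859), and -0.19 ± 0.15 SE on the dimmer one.

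Cldn1 and Cldn8 read below the median probe set on all 6 arrays, where signal is close to background, so whether they were expressed is uncertain. Cldn1 encodes the sealing claudin of the skin barrier, and read 2.79, 2.58 and 2.79 in mutants 1, 2 and 3, against 2.93, 2.86 and 2.89 in controls 1, 2 and 3. Its change was -0.17 ± 0.10 SE (adjusted p = 0.578). The 3 other Cldn1 probe sets gave changes of -0.28, 0.08 and -0.0035, so they differed in direction. Cldn8, a sealing claudin of distal colon and kidney tubule, read 3.09, 3.04 and 3.42 in mutants 1, 2 and 3, against 2.83, 2.98 and 2.57 in controls 1, 2 and 3. Its change was 0.39 ± 0.15 SE (adjusted p = 0.34).

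**Figure D2:**
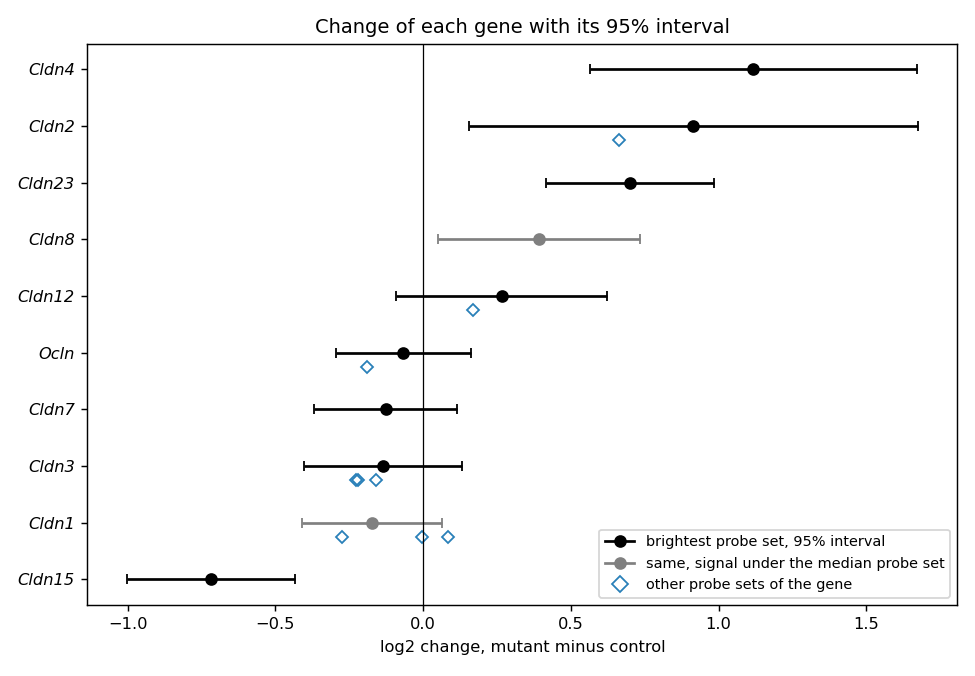
Change of each gene (log2, mutant minus control) with its 95% interval, sorted by size, for the brightest probe set of each gene, and the changes of the 9 other probe sets as open diamonds. Intervals of Cldn4, Cldn2, Cldn23 and Cldn8 lie above 0 and that of Cldn15 lies below 0 before any adjustment for the number of genes. Grey marks Cldn1 and Cldn8, whose signal lay under the median probe set.

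Levels of marker lists for cell types and gut segments are given beside the claudins. In whole tissue, fewer cells of a type and less RNA per cell cannot be told apart. Markers of ileum and colon had a mean of 4.81 to 5.32 in mutants and 3.30 to 4.47 in controls, and all 5 measured had a higher mean in mutants, though none passed the test. The ileal genes carried this. Fabp6, the ileal bile acid binding protein gene, read 9.57, 10.03 and 9.80 in mutants 1, 2 and 3, against 9.15, 6.67 and 3.37 in controls 1, 2 and 3. Slc10a2, the ileal bile acid transporter gene, read 3.99, 4.40 and 6.98 in mutants 1, 2 and 3, against 3.31, 2.93 and 3.26 in controls 1, 2 and 3. The colon markers Car1, Aqp8 and Hoxb13 stayed below the median probe set on all arrays.

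Within the controls Fabp6 ran from 3.37 to 9.15 and Cldn2 from 8.60 to 9.06. Cldn4 ran from 8.03 to 8.20, Cldn15 from 10.7 to 10.9 and Cldn23 from 8.03 to 8.22. In control 1, where Fabp6 was near the mutant level, Cldn4 read 8.12, Cldn23 8.22 and Cldn15 10.8. Controls 2 and 3 read 8.03 and 8.20 for Cldn4, 8.03 and 8.05 for Cldn23, and 10.7 and 10.9 for Cldn15. Cldn23 was thus highest in control 1 among the controls. So was Cldn2, at 9.06 in control 1 against 8.60 and 8.63 in controls 2 and 3, and 9.20 in mutant 1. Control 1 was also the control that carried Y-linked transcripts, so gut position, sex and other properties of this animal cannot be told apart. Mutant 3, the mutant that carried them, had the highest Slc10a2 (6.98) and Cldn2 (10.5) of the mutants, while Fabp6 was highest in mutant 2. The part of gut position in the claudin differences was not tested.

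General epithelial markers (Cdh1, Krt8, Krt18 and Krt19) averaged 12.05 to 12.47 in mutants and 11.91 to 11.97 in controls, with 4 of 4 higher in mutants on average and none past the test. Krt18 led this, at 11.08, 11.16 and 12.003 in mutants 1, 2 and 3, against 10.8, 10.8 and 10.6 in controls 1, 2 and 3. Markers of crypt base and dividing cells averaged 7.97 to 8.24 in mutants and 8.24 to 8.29 in controls, with 1 of 5 higher in mutants on average. The higher one was the crypt base gene Lgr5, which differed by 0.30 with groups apart. Olfm4 differed by -0.19 with groups apart. Ascl2 differed by -0.54, Mki67 by -0.14 and Top2a by -0.10, with overlapping groups, and Ascl2 was lowest in mutant 3 at 4.48. The part of these lists, and of the enterocyte markers, in the claudin differences was not tested.

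Immune markers lay higher in the mutants on average. The 5 T cell markers averaged 7.69 to 8.48 in mutants and 6.56 to 7.90 in controls, with 5 of 5 higher in mutants on average and none past the test. Itgae, an integrin of intraepithelial lymphocytes, read 6.61, 7.12 and 6.66 in mutants 1, 2 and 3, against 6.33, 5.56 and 5.89 in controls 1, 2 and 3, with groups apart (adjusted p = 0.154). The granzyme genes Gzma and Gzmb differed by 1.10 and 1.31, with overlapping groups. Macrophage markers averaged 6.30 to 6.92 in mutants and 6.22 to 6.38 in controls, with 4 of 4 higher in mutants on average and none past the test. Csf1r, the receptor of a macrophage growth factor, differed by 0.40 and Adgre1, a macrophage surface receptor gene, by 0.28, both with groups apart. The part of immune cells in the claudin differences was not tested.

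**Figure D3:**
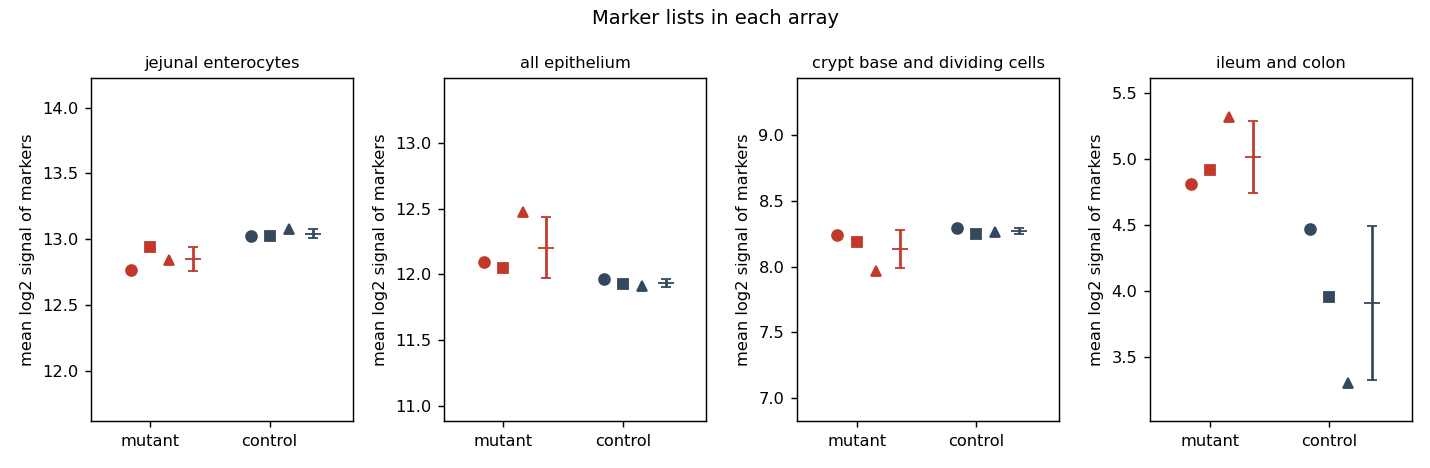
Mean log2 signal of 4 marker lists on each array, mutants in red at the left and controls in dark blue at the right, with the mean and SD (n = 3 each). Vertical axes span the same range. The ileum and colon list spreads widest within the controls, from 3.30 to 4.47, and the enterocyte list lies slightly lower in the mutants.

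Changes of other junction genes lay between -0.49 and 0.69. Of 82 listed symbols, some of them older names of one gene, 68 were measured, and 0 passed the test in either direction (limma, 2 higher and 5 lower at an unadjusted p under 0.05). Their median change was -0.01, and that of all genes was also -0.01. Groups did not overlap in 3 of the 68 above and 6 below, or 1 above and 6 below among the 55 brighter than the median probe set. These shares stand beside 6.93% of all genes above and 10.2% below.

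Among 14 other claudins and claudin-domain genes, 10 read under the median probe set, and changes ran from -0.31 (Cldnd1) to 0.31 (Cldnd2). Cldn34c1 and Cldn11 differed by 0.16 and 0.14, both at background signal. Cldn5, the main claudin of endothelium, chosen after its value was seen, differed by -0.06.

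Of 11 other membrane proteins, Ildr1, an angulin that marks corners where cells meet, had the smallest p. It read 3.32, 3.78 and 3.67 in mutants 1, 2 and 3, against 3.00, 2.86 and 2.85 in controls 1, 2 and 3, all under the median probe set. Its change was 0.69 ± 0.14 SE (adjusted p = 0.0865), and it passed without mutant 1. The endothelial adhesion gene Esam differed by 0.30, Ildr2 by -0.24 and the angulin gene Lsr by 0.17, with overlapping groups. Tricellulin, encoded by Marveld2 and chosen after its value was seen, differed by -0.05.

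In the cytoplasmic plaque, the 20 measured genes ran from -0.49 to 0.25. The lowest were Prkcz, the polarity kinase PKC zeta, at -0.49 ± 0.16 SE, and Arhgef2, an exchange factor for RhoA held at junctions, at -0.37 ± 0.12 SE. Pard3, the polarity scaffold PAR-3, differed by -0.29 ± 0.10 SE and Patj, a Crumbs complex scaffold, by -0.27 ± 0.10 SE. These 4 of the 20, named for their smallest p, had all mutant values below all control values, with adjusted p between 0.274 and 0.333. Over all genes 10.2% lay below in this way. Tjp1, which encodes ZO-1 and was chosen after its value was seen, differed by -0.04 with overlapping groups.

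Among 15 adherens junction and desmosome genes, E-cadherin, encoded by Cdh1, had all mutant values above all controls. It read 11.6, 11.4 and 11.7 in mutants 1, 2 and 3, against 11.2 in each of the controls, a change of 0.33 ± 0.10 SE (adjusted p = 0.249). Nectin3 differed by -0.18, Vcl (vinculin) by 0.26 and Nectin2 by 0.23, with overlapping groups. Of 8 claudin partners and proteases, Spint1, an inhibitor of the membrane protease matriptase, differed by -0.32 ± 0.10 SE (adjusted p = 0.259), again with groups apart. Epcam, which steadies claudin-7, differed by -0.19, the protease gene Prss8 by 0.19 and the intestinal transcription factor gene Cdx2 by 0.36.

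**Figure D4:**
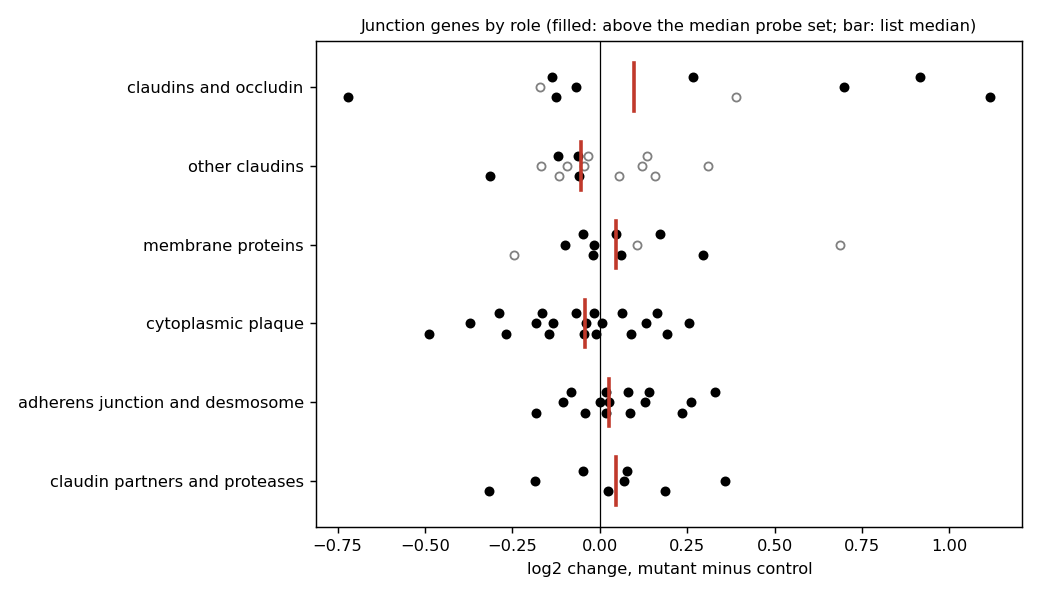
Change of every measured junction gene (log2, mutant minus control) by role, with 1 point per gene and a red bar at each list's median. Filled points lie above the median probe set and open points below it. The claudins and occludin run from -0.72 to 1.12, and the other lists from -0.49 to 0.69.

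Cldn15 had the smallest p of the members, and the genes most like it over the 6 arrays were named by Pearson's r among 4461 candidates brighter than the median gene with a range of at least 0.5. They were Snx7 (a sorting nexin) at r = 0.995, Acvr1b (an activin receptor), Trp53i13 and Epha1 (an ephrin receptor) at r = 0.992 each, and Nr1d2 (a nuclear receptor of the circadian clock) at r = 0.990. All 5 separated mutants from controls, with changes from -0.94 to -0.52, and the r reflects that split on 6 arrays that share a scale. Trp53i13 and Epha1 passed the test (adjusted p = 0.0267 and 0.0351). Among the members, r with Cldn15 was lowest for Cldn23 at -0.97 and Cldn4 at -0.93.

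The calls of Cldn15, Cldn4 and Cldn23 differed between settings. Each kept its sign under all 16 alternatives, though some of these alter only the error or adjusted p and not the change. Changes ran from -0.81 to -0.63 for Cldn15, from 0.94 to 1.43 for Cldn4 and from 0.63 to 0.80 for Cldn23. Adjusted p ran from 0.031 to 0.533, from 0.00976 to 0.618 and from 0.0335 to 0.563 for these genes in turn. Without control 3 and mutant 2, the arrays with pancreatic and fat transcripts, the changes were -0.66, 1.02 and 0.63, at adjusted p of 0.533, 0.618 and 0.563 on 4 arrays.

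**Figure D5:**
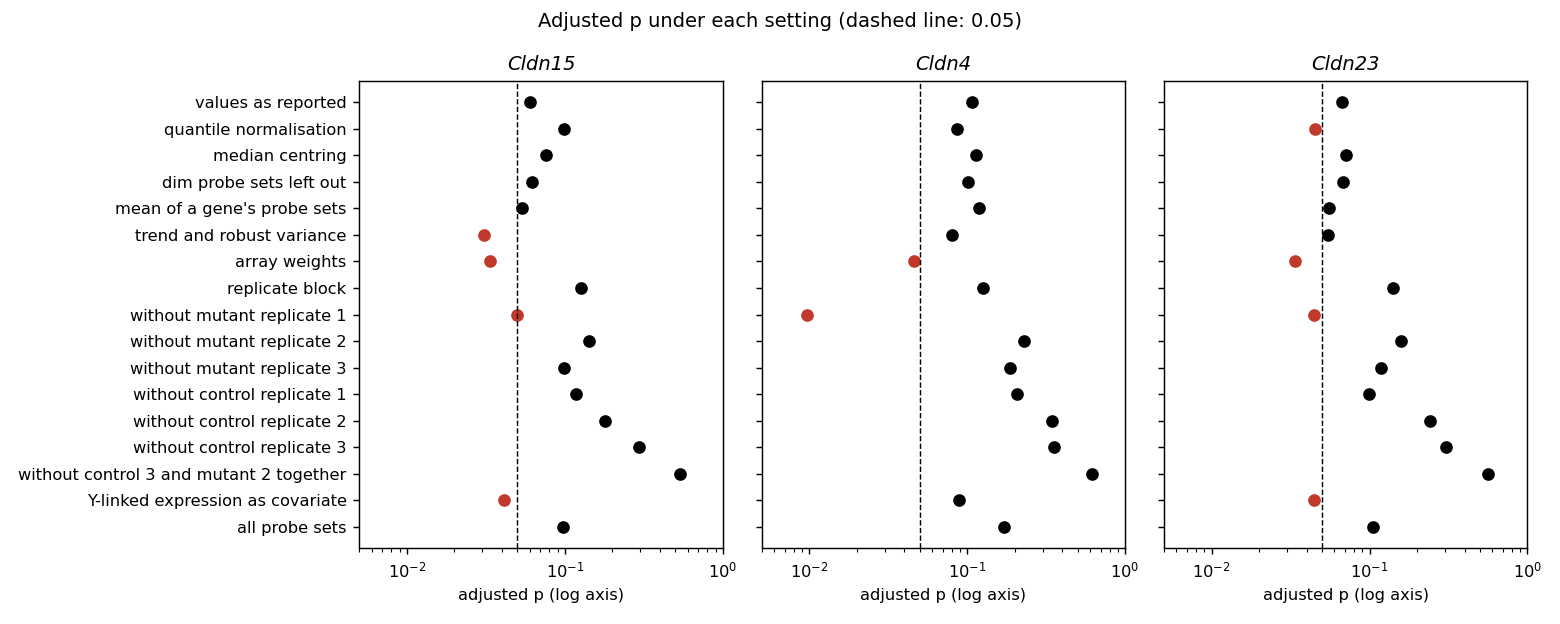
Adjusted p (log axis) of Cldn15, Cldn4 and Cldn23 under each setting, with a dashed line at 0.05 and red points below it. All 3 genes passed with array weights and without mutant 1, and the highest adjusted p for each came from the fit without control 3 and mutant 2.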

How the data were processed

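The deposited table holds log2 signals of the authors, with 1 value for each probe set on each array. How these were summarised and normalised is not stated in the labels, and the log2 scale was read from their range, 1.80 to 14.5. Array medians lay between 3.93 and 3.98, so the values were used as deposited. Control probe sets (64 of 45101) were left out. The platform annotation gave 1 symbol for 34945 probe sets, several for 932 and none for 9160. Each gene was represented by its probe set with 1 symbol and the highest mean, and all 10 member symbols matched RefSeq by Entrez identifier.

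Groups were compared with limma 3.58.1 (lmFit, eBayes) in R 4.3.3, two-sided, with Benjamini-Hochberg adjustment over 18193 genes and a call at adjusted p under 0.05. The procedure was tried on simulated data with independent normal noise for each gene and array. Those data held no differences shared by many genes of an array, such as pancreatic or fat transcripts, so they do not cover these. The number of arrays limits the precision. Members and lists were chosen with earlier results of these data known. Besides the members and Hnf4a, up to 4 genes with the smallest p of each list and the 5 most like Cldn15 were named, with marker genes, and others are said to be chosen after their values were seen. Alternatives covered normalisation, centring, dim probe sets, probe set choice, variance model, array weights (statmod 1.5.0), a replicate block and omitted arrays. A Y-linked covariate and a fit over all probe sets were added after seeing the data.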

Additional observations from a re-analysis of the deposited data

How the results depend on the processing

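Over the 10 genes and 16 alternatives, 150 of 160 results kept their direction and stayed short of the threshold, 10 passed it and 0 reversed. Some alternatives could not reverse a change, because they alter only its error or adjusted p. These were the omission of dim probe sets, trend and robust variance, the replicate block and the fit over all probe sets. The number of members called, 0 as reported, was 1 under quantile normalisation (Cldn23), 1 with trend and robust variance (Cldn15), 3 with array weights and 2 with the Y-linked covariate (Cldn15 and Cldn23). With 1 array left out it ranged from 0 to 3, the 3 being Cldn4, Cldn15 and Cldn23 without mutant 1. Other junction genes called numbered 0 as reported, 1 with array weights and 0 to 1 with 1 array left out, in each case Ildr1. Over all genes 96 were called as reported, 150 with array weights, 196 with the Y-linked covariate, 4 without control 3 and mutant 2 together (fewer samples), and 22 to 96 with 1 array left out: 24 without control 2, 22 without control 3 and 41 without mutant 2. Deviations of same-numbered arrays from their group means correlated at 0.07, 0.07 and -0.02, which does not settle whether the replicate numbers pair littermates. With the replicate block 62 genes and 0 members were called. The cause of these differences was not tested. Signal near background limits Cldn1, Cldn8 and Ildr1.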
